A study of Mus musculus with 18 samples.

Results

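Nerve injury and axon regeneration genes were read in the dorsal spinal cord of mice with an inflamed hindpaw. The set held 8 genes, Sprr1a, Atf3, Gap43, Sox11, Jun, Gadd45a, Ecel1 and Csf1, of the 18444 genes that had 1 name in all 3 expression tables. It was chosen by the measured values of Sprr1a, which was higher after complete Freund's adjuvant (CFA) than after saline with each viral vector, together with 7 genes known from injured neurons. The values of Sprr1a after CFA and saline are therefore given as a description. The question was whether the other 7 genes moved with it.

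All mice were C57BL/6 (C57BL/6N in the study's methods), 3 months old, and had received a recombinant adeno-associated virus (rAAV) in the dorsal horn of spinal segments L3–5 on both sides, after laminectomy and at least 3 weeks earlier. The rAAV carried LacZ, the β-galactosidase control (rAAV-LacZ), wild-type histone deacetylase 4 (rAAV-HDAC4 wt), or rAAV-HDAC4 3SA, a mutant that lacks phosphorylation sites needed for nuclear export and stays in the nucleus. Each construct had a Flag tag. CFA, an emulsion that causes lasting inflammation, or saline was injected into the plantar skin of one hindpaw, and dorsal spinal cord of L3–5 was taken 24 h later from 3 mice for each of the 6 groups, 18 mice in all. Every group, controls included, thus had surgery and an injection into the tissue that was sequenced. The study's methods describe the procedure as free of lasting inflammation or damage to the tissue, and no group without virus was analysed here. The promoter of the transgenes and the side of the cord that was taken are not given in the sources used here. Hdac4 itself was listed at 7.41 and 7.72 FPKM in the saline and CFA groups with LacZ, at 10.1 and 10.8 with HDAC4 wt, and at 8.86 and 8.81 with HDAC4 3SA.

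The measure was FPKM, the number of fragments per kilobase of transcript scaled to the mapped fragments, with 1 value for each group of 3 mice. No value per mouse was used, so no value has an SD and no difference between groups has a replicate check or a test. Ratios of CFA over saline were taken on the log2 scale after 0.1 FPKM was added to each value, and a gene was read where its saline and CFA values averaged at least 0.5 FPKM. A gene is said to lie beyond the threshold where this log2 ratio was above 0.5 or below -0.5, a ratio of 1.41-fold. The values come from 3 tables, 1 for each vector, which are taken here as normalised separately. Levels set side by side across vectors therefore carry any difference between tables as well as the vector, and these cannot be told apart. The sums of all FPKM values lay between 638343 and 768051 in the 6 groups, and between 88 and 551 of the 34579 loci were listed at 0. In a tissue sample, fewer cells of a type and less RNA per cell cannot be told apart. The tissue showed its defining markers. The spinal neuron markers, led by Snap25, a synaptic vesicle fusion protein, were listed at 1696 FPKM in sum in the LacZ saline group, and the dorsal horn neuron markers, led by the opioid peptide precursor Penk, at 300 FPKM (summed over 7 and 9 genes).

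A neuron whose axon is cut switches on a programme of transcription factors, growth cone proteins and secreted signals that is absent or low in the intact adult cell. ATF3, JUN and SOX11 are transcription factors of this programme, and JUN is activated by the DLK-JNK kinase cascade that carries the injury signal from the axon to the nucleus. SPRR1A and GAP43 act at the growing axon. GADD45A belongs to a family of stress-induced regulators of growth arrest and DNA demethylation, ECEL1 is a neuronal membrane protein of the neprilysin family, and CSF1 is the cytokine with which injured sensory and motor neurons drive microglia to divide. The genes are best known from sensory and motor neurons with a cut peripheral axon. Several of them, Jun and Atf3 among them, are also induced in glia and immune cells.

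The promoters of Sprr1a, Atf3 and Csf1 are shown because these were the members beyond the threshold in a CFA comparison, and those of Jun and Sox11 because they shared letters with Sprr1a. Each is the 250 bases before the RefSeq transcription start on GRCm38.p6, 5′ to 3′ on the minus strand, on which all 8 members lie. Capitals mark matches to TGANTCA, the AP-1 site that JUN dimers bind, or to TGACATCA or its reverse TGATGTCA, an AP-1 like site. They lie at chr3:92485882-92486131 (Sprr1a), chr1:191183334-191183583 (Atf3), chr3:107760470-107760719 (Csf1), chr4:95052223-95052472 (Jun) and chr12:27342719-27342968 (Sox11).
Sprr1a: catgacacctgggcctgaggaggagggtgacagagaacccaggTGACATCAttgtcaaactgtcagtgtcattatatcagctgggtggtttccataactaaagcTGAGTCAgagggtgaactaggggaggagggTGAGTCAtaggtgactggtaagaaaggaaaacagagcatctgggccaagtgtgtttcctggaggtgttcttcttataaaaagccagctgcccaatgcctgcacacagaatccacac
Atf3: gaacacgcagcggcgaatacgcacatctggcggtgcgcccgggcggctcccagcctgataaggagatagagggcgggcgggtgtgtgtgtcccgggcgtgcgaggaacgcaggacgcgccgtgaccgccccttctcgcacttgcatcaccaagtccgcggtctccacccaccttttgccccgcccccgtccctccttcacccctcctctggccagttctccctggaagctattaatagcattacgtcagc
Csf1: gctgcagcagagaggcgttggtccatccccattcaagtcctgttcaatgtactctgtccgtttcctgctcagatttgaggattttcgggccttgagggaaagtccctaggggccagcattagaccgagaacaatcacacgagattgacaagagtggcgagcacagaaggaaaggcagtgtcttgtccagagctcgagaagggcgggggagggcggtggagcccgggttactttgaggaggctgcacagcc
Jun: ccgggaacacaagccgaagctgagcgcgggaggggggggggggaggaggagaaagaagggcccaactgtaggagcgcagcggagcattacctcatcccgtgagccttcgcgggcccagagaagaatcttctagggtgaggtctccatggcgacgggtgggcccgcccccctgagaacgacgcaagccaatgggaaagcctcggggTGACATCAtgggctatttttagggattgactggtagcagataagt
Sox11: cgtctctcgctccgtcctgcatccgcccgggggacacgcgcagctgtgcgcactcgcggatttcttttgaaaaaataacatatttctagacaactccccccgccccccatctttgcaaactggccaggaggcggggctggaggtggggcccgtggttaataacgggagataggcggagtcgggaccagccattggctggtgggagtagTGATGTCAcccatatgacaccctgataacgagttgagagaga

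A promoter was matched for 7 of the 8 members, all but Gap43. The Sprr1a window held TGAGTCA at 146 to 140 and again at 116 to 110 bases before the start. No other member's window held TGANTCA. Over all 32851 promoter windows of this length, 6.75% held at least 1 match to TGANTCA on either strand and 0.338% held at least 2. TGACGTCA, the CRE to which ATF family dimers bind, was in none of the 7 windows and in 1.55% of all windows. Only the exact string was searched, and TTACGTCA near the end of the Atf3 window, which differs from it by 1 letter, was not counted. The Atf3 gene in GENCODE begins further upstream, at chr1:191218039, so the window shown covers 1 of its starts. TGACATCA or its reverse, a letter string searched after these windows had been seen, was in 3 of 7 windows and in 2.93% of all. It lay at 207 to 200 bases before the start in Sprr1a, at 45 to 38 in Jun and at 42 to 35, as TGATGTCA, in Sox11. The 3 strings do not match the same letters, so no match was counted under more than 1 of them. The Sprr1a window had the lower GC content, 49.6%, against 65.2% in Atf3. A match is a stretch of letters in this window and was not set against any measurement of binding.

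Sprr1a (chr3:92483952-92485884), a small proline-rich protein of the skin's cornified envelope that is also induced in axotomised neurons, was at 0.234 FPKM in the saline group and 1.91 FPKM in the CFA group in LacZ mice. In HDAC4 wt mice it was at 2.28 FPKM in the saline group and 4.94 FPKM in the CFA group, and in HDAC4 3SA mice at 2.03 and 4.98 FPKM. The CFA value was the higher of the pair with every vector, and the LacZ saline group was the lowest of all 6. The raw ratio of CFA over saline was 8.15-fold, 2.17-fold and 2.46-fold with LacZ, HDAC4 wt and HDAC4 3SA, and the log2 ratio with 0.1 FPKM added was 2.59, 1.08 and 1.26. The LacZ value depends on the amount added, as it was 3.03 with nothing added and 1.24 with 1 FPKM added, where HDAC4 wt and HDAC4 3SA gave 0.86 and 0.98. A log2 ratio at or above that of Sprr1a was found for 30 genes (0.196% of those read) with LacZ, 225 (1.41%) with HDAC4 wt and 234 (1.47%) with HDAC4 3SA. The LacZ ratio was the largest, while the difference in FPKM was smaller there than in either other table.

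**Figure D1:**
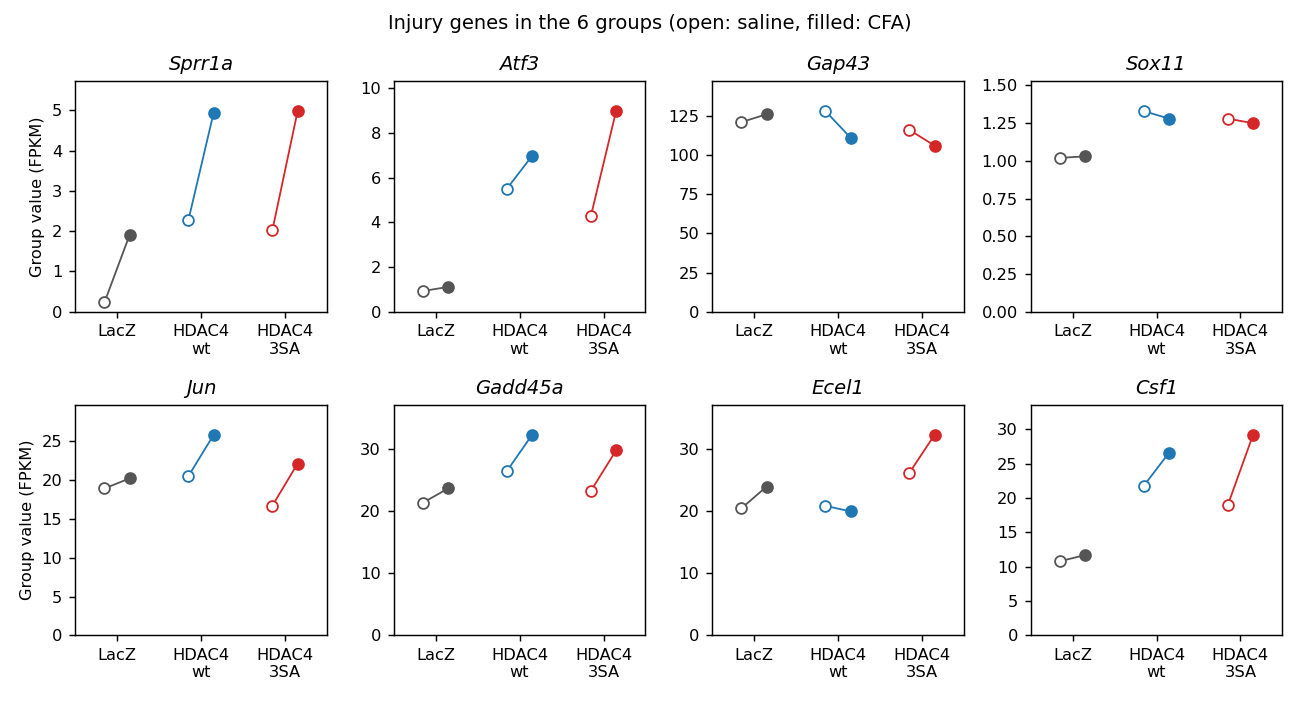
FPKM of each of the 8 genes (y axis from 0, own scale in each panel) in the saline (open) and CFA (filled) group of each vector (x axis), with a line joining the pair of a vector. Each point is 1 value for 3 mice and has no error bar. Sprr1a is at 0.234 FPKM in the LacZ saline group and at 4.98 FPKM in the HDAC4 3SA CFA group, and Gap43 and Sox11 have nearly level pairs.

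Atf3 (chr1:191170296-191183408), the transcription factor used most widely as a mark of axotomised neurons, was low in LacZ mice, at 0.926 FPKM in the saline group and 1.11 FPKM in the CFA group. It was listed at 5.51 and 6.98 FPKM in HDAC4 wt mice and at 4.29 and 8.98 FPKM in HDAC4 3SA mice. The CFA value was 1.20, 1.27 and 2.09 times the saline value, with log2 ratios of 0.24, 0.34 and 1.05, so it lay beyond the threshold in HDAC4 3SA mice and within it with the other vectors. Genes with a log2 ratio at or above that of Atf3 made up 11.1%, 8.83% and 2.28% of the genes read with LacZ, HDAC4 wt and HDAC4 3SA.

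Jun, which encodes the AP-1 subunit c-JUN, was at 18.9 FPKM in the saline group and 20.2 FPKM in the CFA group with LacZ, 20.5 and 25.8 with HDAC4 wt, and 16.7 and 22.1 with HDAC4 3SA. All 3 log2 ratios, 0.10, 0.33 and 0.40, were above 0 and within the threshold. The locus named Jun in the LacZ table was a stretch of 663 bases at the gene's 5′ end (chr4:95051716-95052378). In the other tables it was a stretch of 2595 bases over most of the gene (chr4:95048989-95051583), and the stretches do not overlap. The LacZ level and ratio of Jun are therefore not the same measure as the other levels and ratios. Sox11 (chr12:27334428-27345089), a factor of immature and regenerating neurons, was near 1 FPKM throughout. Its values were 1.02 and 1.03 FPKM with LacZ, 1.33 and 1.28 with HDAC4 wt, and 1.28 and 1.25 with HDAC4 3SA. Its log2 ratios of 0.02, -0.05 and -0.03 were the closest to 0 of any member.

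Gap43 (chr16:42248439-42340761), the growth cone phosphoprotein, was by far the most abundant member. It was listed at 121 and 126 FPKM with LacZ, 128 and 111 with HDAC4 wt, and 116 and 106 with HDAC4 3SA. The CFA value was slightly the higher with LacZ and the lower with both HDAC4 vectors, with log2 ratios of 0.06, -0.21 and -0.13, all within the threshold. With both loci named Gap43 summed they were 0.10, 0.03 and -0.09. Sprr1a and Gap43, both of which act at the growing axon, thus lay apart in each comparison.

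Gadd45a (chr6:67035085-67080759) was listed at 21.3 and 23.6 FPKM with LacZ, 26.4 and 32.2 with HDAC4 wt, and 23.2 and 29.7 with HDAC4 3SA. Each CFA value was above its saline value, and the log2 ratios of 0.15, 0.28 and 0.35 stayed within the threshold. The Gadd45a locus also covers an overlapping gene on the other strand, E230016M11Rik, and whether reads were counted by strand is not given in the sources used here. Ecel1 (chr1:87147182-87156604) was listed at 20.4 and 23.9 FPKM with LacZ, 20.8 and 19.9 with HDAC4 wt, and 26.1 and 32.2 with HDAC4 3SA. Its log2 ratios were 0.23, -0.06 and 0.30, on both sides of 0. This depends on the locus, since with both loci named Ecel1 summed the log2 ratios were 0.40, 0.08 and 0.39, all above 0.

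Csf1 (chr3:107741019-107760579), the ligand of the microglial receptor CSF1R, was listed at 10.8 and 11.7 FPKM with LacZ, 21.8 and 26.6 with HDAC4 wt, and 19.0 and 29.2 with HDAC4 3SA. The CFA value was 1.09, 1.22 and 1.54 times the saline value, with log2 ratios of 0.12, 0.29 and 0.62. It lay beyond the threshold in HDAC4 3SA mice, where 7.0% of the genes read had a log2 ratio at least as high, against 22.3% with LacZ and 11.1% with HDAC4 wt. Csf1 at 0.62 was the member just outside the threshold band and Jun at 0.40, also in HDAC4 3SA mice, the one just within it.

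Of all 8 members, 1 lay above the threshold in LacZ mice, where 3.59% of 15307 genes did, and 1 in HDAC4 wt mice, where 4.89% of 15963 genes did. In both cases this was Sprr1a. In HDAC4 3SA mice 3 members, Sprr1a, Atf3 and Csf1, lay above it, where 9.18% of 15908 genes did. No member lay below the threshold with any vector, where 2.16%, 3.13% and 3.28% of all genes did. All 8 members were read with every vector. Without Sprr1a, the count was 0, 0 and 2 of 7. The log2 ratio was above 0 in 7, 4 and 5 of these 7 with LacZ, HDAC4 wt and HDAC4 3SA, and its median over the 7 was 0.12, 0.28 and 0.35, beside medians of 0.01, 0.00 and 0.01 over all genes. The members did not share 1 pattern. Sprr1a, Atf3, Csf1, Jun and Gadd45a were higher after CFA with each vector. Of these, Sprr1a passed the threshold with each vector, Atf3 and Csf1 with HDAC4 3SA alone, and Jun and Gadd45a with none. For Atf3, Csf1, Jun and Gadd45a the ratio was lowest with LacZ and highest with HDAC4 3SA, although Jun was read over another stretch with LacZ. Gap43, Sox11 and Ecel1 had small ratios on both sides of 0 at the loci used. Whether the ratios of the vectors differ from each other was not tested, as values per mouse were not analysed here.

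**Figure D2:**
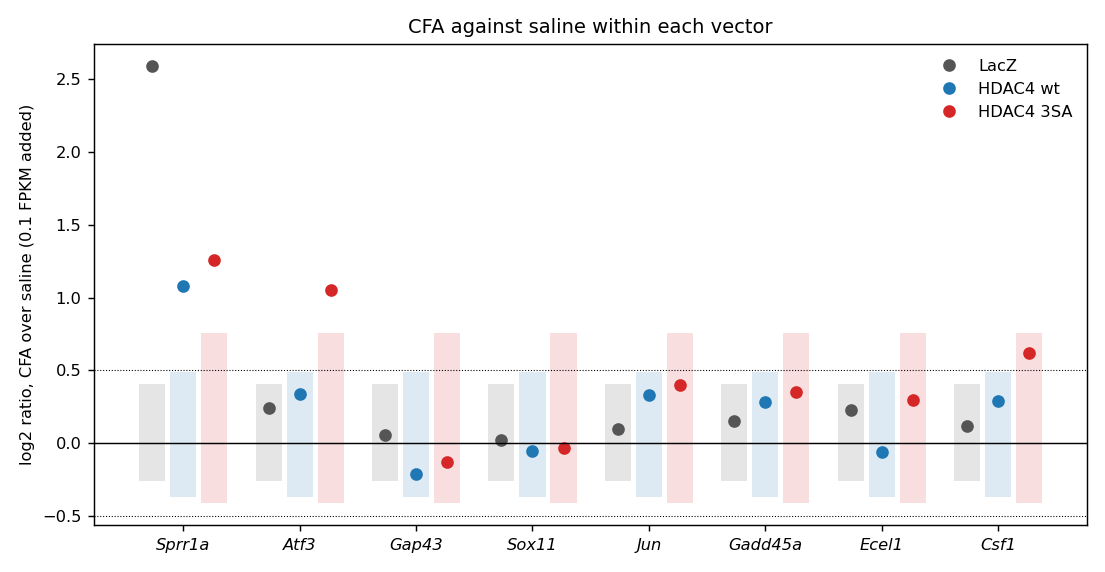
log2 ratio of CFA over saline with 0.1 FPKM added (y axis) for each of the 8 genes (x axis), coloured by vector. Shaded bars span the 5th to the 95th percentile of all genes read with that vector, from -0.26 to 0.41 with LacZ, -0.37 to 0.49 with HDAC4 wt and -0.41 to 0.76 with HDAC4 3SA, and dotted lines mark the threshold of 0.5. Sprr1a lies above the bar with every vector, and Atf3, at 1.05, with HDAC4 3SA.

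Set side by side in the saline groups, whose paws were not injected with CFA, 3 of the 8 members differed beyond the threshold between LacZ and the HDAC4 vectors. Sprr1a was 9.73-fold and 8.66-fold higher in HDAC4 wt and HDAC4 3SA mice than in LacZ mice, Atf3 was 5.94-fold and 4.63-fold higher, and Csf1 2.01-fold and 1.75-fold. The other 5 members lay between 0.886-fold and 1.31-fold, Jun among them with its differing locus. Thus 3 of 8 members lay above the threshold with HDAC4 wt, where 15.4% of 15774 genes did, and 3 of 8 with HDAC4 3SA, where 11.9% of 15652 genes did. Sprr1a is part of these counts, although its low LacZ saline value, 0.234 FPKM, also enters the ratio that chose the set, and it was read here through its level with the HDAC4 vectors. Without it the count was 2 of 7 in both. No member lay below it, where 5.73% and 4.28% of genes did. The medians over all genes were 0.07 and 0.05. Both comparisons share the LacZ saline group. That group is also the denominator of the CFA ratio in LacZ mice, so a low Sprr1a value in it enters both the large LacZ ratio and the large ratios across vectors. After CFA, Sprr1a was 2.59-fold and 2.61-fold, Atf3 6.30-fold and 8.10-fold, and Csf1 2.26-fold and 2.48-fold higher with HDAC4 wt and HDAC4 3SA than with LacZ.

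**Figure D3:**
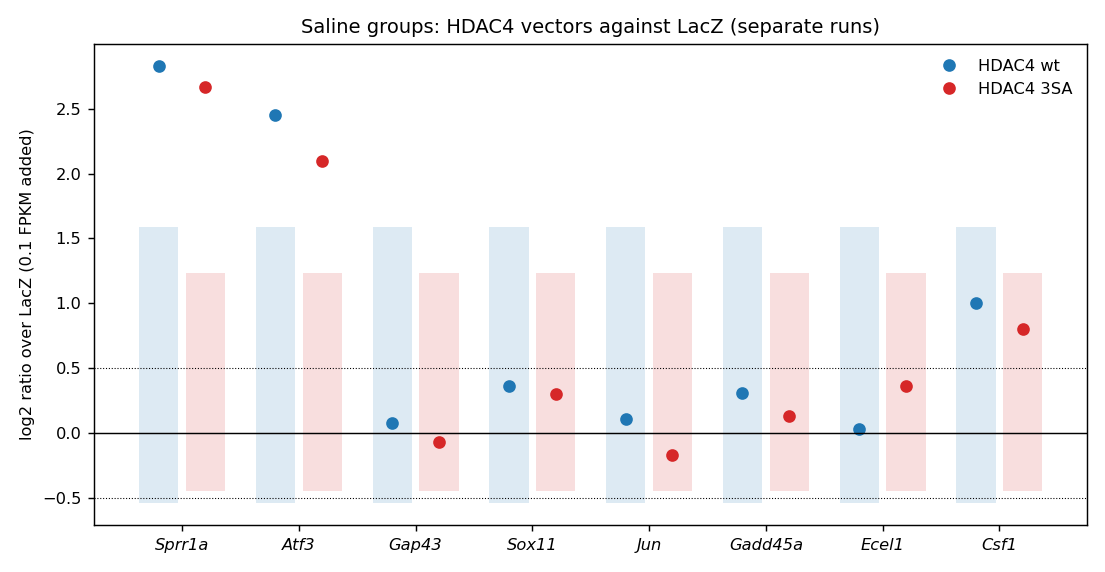
log2 ratio of the saline value with HDAC4 wt or HDAC4 3SA over that with LacZ (y axis, 0.1 FPKM added) for each of the 8 genes (x axis). Shaded bars span the 5th to the 95th percentile of all genes read, from -0.54 to 1.59 with HDAC4 wt and -0.45 to 1.23 with HDAC4 3SA, and the vectors come from separate tables. Sprr1a (2.83 and 2.67) and Atf3 (2.45 and 2.10) lie above the bars and Csf1 (1.0 and 0.80) within them.

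Over the 6 groups the members ranked, by mean FPKM, from Gap43 (106 to 128 FPKM) through Gadd45a (21.3 to 32.2), Ecel1 (19.9 to 32.2), Jun (16.7 to 25.8), Csf1 (10.8 to 29.2), Atf3 (0.926 to 8.98) and Sprr1a (0.234 to 4.98) to Sox11 (1.02 to 1.33). FPKM is a level per length, but the mean pools groups from separate tables, and for Jun it pools different stretches of the gene. The order of the low members was not the same in every group. In the LacZ saline group Sox11 (1.02 FPKM) stood above Atf3 (0.926) and Sprr1a (0.234). The ranges of neighbours overlapped from Gadd45a to Csf1 and from Atf3 to Sox11. Gap43 lay above all others, and the range of Csf1 ended above that of Atf3.

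Genes with the pattern most like each member were taken as those with the smallest Euclidean distance over the 3 log2 ratios, among 14365 genes averaging 1 FPKM or more. This likeness is over 3 values and is a description. The limit is on the mean of all 6 groups, so a gene could enter with low values in a vector. For Sprr1a they were Gm20900 (distance 0.652), Lcn2 (0.770), Gm26740 (0.936), Lrg1 (1.04) and Nkg7 (1.06). With LacZ, Gm20900 was listed at 0 and 0.442 FPKM and Nkg7 at 0.159 and 0.656 FPKM, pairs that average under 0.5 FPKM, and the LacZ ratio of Gm20900 is set by the 0.1 FPKM added. Lcn2, which encodes the acute phase protein lipocalin 2, was at 1.70 FPKM in the saline group and 14.3 FPKM in the CFA group with LacZ, 3.40 and 10.7 with HDAC4 wt, and 5.12 and 15.9 with HDAC4 3SA. Lrg1, a secreted leucine-rich glycoprotein of the acute phase, had log2 ratios of 2.08, 1.96 and 1.48. None of the other members was among these 5 genes. For Atf3 they were Lat2 (distance 0.0403), a linker protein of immune cells, and Apobec1 (0.0503), a cytidine deaminase. Lat2 was listed at 1.12 and 1.30 FPKM with LacZ, 7.23 and 9.28 with HDAC4 wt and 5.16 and 10.6 with HDAC4 3SA, levels close to those of Atf3 in each group. For Jun, whose LacZ ratio comes from another stretch of the gene, they were Plce1 and Gfap, the astrocyte filament gene. Gfap had log2 ratios of 0.09, 0.34 and 0.44. For Csf1 they were Gng5 and Cd34, for Gadd45a Neurod1 and Bcl6, for Ecel1 Dpm3 and Trappc6a, for Gap43 9030407P20Rik and Rnmtl1, and for Sox11 Commd2. Most genes move little, so the near neighbours of the members with small ratios are many.

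The wider injury programme was read from 8 lists with 97 genes other than the members, of which 71 were matched by name and 1 more lay at different places in the tables and was left out. The other genes were not read here. Above the threshold lay 6 of 62 genes (9.68%) with LacZ, 2 of 68 (2.94%) with HDAC4 wt and 12 of 68 (17.6%) with HDAC4 3SA, beside 3.59%, 4.89% and 9.18% of all genes. Below it lay 0, 0 and 1. The medians over these genes were 0.09, 0.05 and 0.15. With HDAC4 wt the count was near the share of all genes.

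Among injury transcription factors and AP-1 partners, 3, 1 and 2 of 16 genes lay above the threshold with LacZ, HDAC4 wt and HDAC4 3SA, with list medians of 0.17, 0.17 and 0.34. Cebpd and Cebpb encode C/EBP factors of the acute phase response. Cebpd was at 2.04 FPKM in the saline group and 3.84 FPKM in the CFA group with LacZ, 6.38 and 10.3 with HDAC4 wt, and 6.05 and 11.3 with HDAC4 3SA, log2 ratios of 0.88, 0.68 and 0.89. It was the 1 gene of the 8 lists that lay above the threshold with every vector, as Sprr1a did. Cebpb had log2 ratios of 0.51, 0.33 and 0.64. Fosb, an activity-induced AP-1 subunit, had 0.79, 0.46 and 0.39, and Myc, the growth regulator, 0.39, 0.17 and 0.48.

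Of the growth cone and cytoskeleton genes, 0 of 10, 11 and 11 lay beyond the threshold, with medians of 0.01, -0.05 and 0.03. At the shares found over all genes, a count of 0 in so short a list is near the background. Tubb3, the neuronal tubulin, and Stmn2, a microtubule regulator of growing axons, were the most abundant. Stmn2 was listed at 214 and 218 FPKM with LacZ, 154 and 156 with HDAC4 wt, and 178 and 183 with HDAC4 3SA. The genes did not share a direction, and with HDAC4 3SA the log2 ratio was 0.47 for Tubb6, a tubulin, 0.32 for Tubb2b, another tubulin, -0.34 for Flrt3 and -0.49 for Nrn1, which promotes neurite outgrowth. Of the injury-induced peptides and secreted factors, 1, 0 and 0 of 7 lay above the threshold. That gene was Gal, the neuropeptide galanin, at 10.2 and 16.2 FPKM with LacZ, 17.7 and 20.2 with HDAC4 wt, and 21.6 and 22.7 with HDAC4 3SA. The medians of this list were 0.18, -0.21 and -0.32.

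In the list of GADD45 relatives, stress genes and DLK-JNK kinases, 0 of 14, 1 of 15 and 2 of 15 genes lay above the threshold. Hspb1, a small heat shock protein induced in injured neurons and in glia, was listed at 8.10 and 10.9 FPKM with LacZ, 13.8 and 24.1 with HDAC4 wt, and 13.5 and 28.9 with HDAC4 3SA, log2 ratios of 0.42, 0.80 and 1.10. Cdkn1a, the cell cycle inhibitor p21, had log2 ratios of 0.43, 0.18 and 0.75. Of the gp130 cytokines and their signalling genes, through which STAT3 is activated after injury, 2 of 6, 0 of 8 and 4 of 8 lay above the threshold, with medians of 0.07, 0.20 and 0.45. The oncostatin M receptor Osmr had log2 ratios of 0.57, 0.43 and 0.91, and the feedback inhibitor Socs3 0.69, 0.27 and 0.64. The cytokine genes Osm and Lif were read with the HDAC4 vectors and had log2 ratios of 0.36 and 0.13 with HDAC4 wt and 1.13 and 0.57 with HDAC4 3SA.

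Of the partners of Csf1, 3 of 4 genes lay above the threshold with HDAC4 3SA, as Csf1 did, against 0 of 3 with LacZ and 0 of 4 with HDAC4 wt. With HDAC4 3SA, 9.18% of all genes lay above it, and so did 7 of 9 microglial markers. The receptor Csf1r was listed at 23.1 and 23.7 FPKM with LacZ, 62.3 and 70.5 with HDAC4 wt, and 52.9 and 78.1 with HDAC4 3SA. Tyrobp, the microglial adaptor DAP12, was listed at 9.62 and 11.8 FPKM, 91.0 and 115, and 69.0 and 153 in the same order. Hcst, which encodes the adaptor DAP10, had a log2 ratio of 1.14 with HDAC4 3SA. Il34, the second ligand of CSF1R, did not share this, with log2 ratios of 0.26, -0.20 and -0.25. Of the metallopeptidases related to Ecel1, none lay above the threshold with any vector, and Mme, neprilysin, lay below it with HDAC4 3SA at -0.55. Of 20 genes of the SPRR and cornified envelope family, 2 were matched, so the family of Sprr1a was hardly read. Tgm1, the transglutaminase that cross-links the envelope, was listed at 0.262 and 0.182 FPKM with LacZ, 3.00 and 3.86 with HDAC4 wt, and 1.93 and 4.07 with HDAC4 3SA, a log2 ratio of 1.04 with the last. Lor, loricrin, stayed within the threshold, at 0.20, -0.03 and -0.32.

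**Figure D4:**
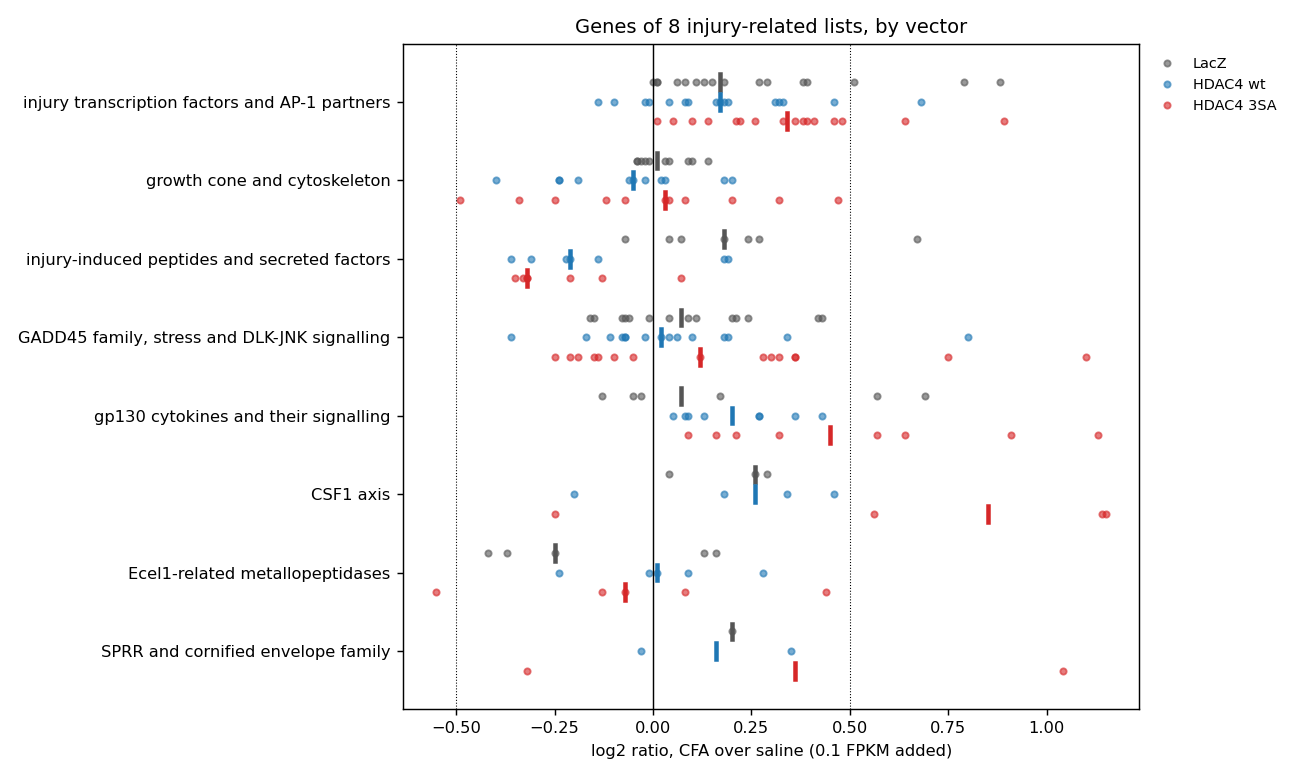
log2 ratio of CFA over saline with 0.1 FPKM added (x axis) for the genes read of each of 8 lists (y axis), coloured by vector, with a bar at each list's median. Dotted lines mark the threshold of 0.5. The growth cone genes lie within it with every vector, and 3 of 4 genes of the CSF1 axis lie above it with HDAC4 3SA.

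After saline, 25 of 67 genes of the 8 lists (37.3%) lay above the threshold with HDAC4 wt over LacZ and 19 of 65 (29.2%) with HDAC4 3SA over LacZ, beside 15.4% and 11.9% of all genes. Below it lay 4 and 3. The share was 3 of 4 for the CSF1 axis in both, and 7 and 5 of 16 for the transcription factors. Some genes in these counts, Hcst of the CSF1 axis and Tgm1 among them, were read only through their level with the HDAC4 vectors. Hcst was at 0.277 FPKM with LacZ, 2.70 with HDAC4 wt and 2.13 with HDAC4 3SA, and Tgm1 at 0.262, 3.00 and 1.93. Tyrobp was 9.46-fold and 7.17-fold higher than with LacZ, Cdkn1a 8.01-fold and 6.23-fold, Socs3 5.56-fold and 3.62-fold, and Cebpd 3.12-fold and 2.96-fold. Tubb3 was 0.695-fold and 0.796-fold. Tyrobp, Cdkn1a, Socs3 and Cebpd, named after their values were seen, were thus higher with the HDAC4 vectors, as Sprr1a, Atf3 and Csf1 were. Other genes of the same lists were level or lower, such as Il11 (1.03-fold and 1.19-fold), Lifr (0.669-fold and 0.809-fold) and Mapk10 (0.710-fold and 0.788-fold).

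Markers of other cells differed along with several of these results. The 9 microglial markers summed to 213 FPKM after saline and 246 after CFA with LacZ, 1427 and 1842 with HDAC4 wt, and 1044 and 1996 with HDAC4 3SA. With CFA, 0, 0 and 7 of 9 lay above the threshold, the same vector in which Atf3 and Csf1 did, and after saline the sum stood in the same order as the levels of Sprr1a, Atf3 and Csf1, lowest with LacZ and highest with HDAC4 wt. None of the 9 was at 0, and their part in the results was not tested. The 6 astrocyte markers summed to 891 and 879 FPKM, 1326 and 1599, and 1322 and 1644, with none beyond the threshold.

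The 6 motor neuron markers, such as the acetylcholine synthesising enzyme Chat, also differed. They summed to 57.2 and 73.4 FPKM with LacZ, 25.3 and 59.0 with HDAC4 wt, and 41.0 and 97.3 with HDAC4 3SA, and 1, 6 and 6 of 6 lay above the threshold, with medians of 0.36, 1.12 and 1.27. Chat was listed at 4.57 and 5.97 FPKM, 2.25 and 5.09, and 4.45 and 11.0. Motor neurons are among the cells in which several members are known to be induced, and they lie in the ventral horn, while the tissue is labelled dorsal. Their markers were nonetheless listed above 0 in every group. The CFA group held more of their RNA with each vector, as it did of Sprr1a, while after saline the sum was highest with LacZ, where Sprr1a was lowest. Their part in the Sprr1a values was not tested.

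Injured sensory neurons and skin are also known to express Sprr1a. Of 10 markers of dorsal root ganglion neurons 7 were matched, and 0, 2 and 1 of the 4, 3 and 4 read lay above the threshold. Prph, which is also a motor neuron marker, was listed at 20.8 and 26.3 FPKM, 8.81 and 21.9, and 15.6 and 43.5. Trpv1, the capsaicin receptor of nociceptors, was at most 0.421 FPKM in any group, whereas Pou4f1, a sensory neuron transcription factor, was between 4.71 and 6.85 FPKM. Avil, an actin-binding protein of sensory neurons, was listed at 0.933 and 0.853 FPKM with LacZ, 3.16 and 9.96 with HDAC4 wt, and 6.28 and 6.93 with HDAC4 3SA. Of 15 keratinocyte markers 6 were matched, and 1 lay at different places in the tables. Krtdap was listed at 0 after saline and 13.7 FPKM after CFA with LacZ, at 0 and 19.2 with HDAC4 wt, and at 0 in both groups with HDAC4 3SA. A value of exactly 0 can be a failed estimate. Of the 5, 5 and 4 keratinocyte markers read, 1, 1 and 0 lay above the threshold, Krtdap in each case. Krt14, the basal keratin, was at most 0.571 FPKM in any group, whereas Krt1, a keratin of the upper layers, was listed at 4.93 and 5.42 FPKM with LacZ, 5.08 and 3.57 with HDAC4 wt, and 5.10 and 3.91 with HDAC4 3SA. Dmkn, Trp63 and Sfn were between 0.959 and 1.44 FPKM. The part of sensory neurons and of skin in the Sprr1a values was not tested.

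Neutrophil markers had the opposite order to Sprr1a in the HDAC4 tables. Their sum was 11.2 and 113 FPKM with LacZ, where 6 of 6 lay above the threshold, 41.7 and 28.8 with HDAC4 wt, where 4 of 6 lay below it, and 62.1 and 38.9 with HDAC4 3SA, where 6 of 6 did. Sprr1a was higher after CFA in all 3. Schwann cell markers lay above the threshold in 5 of 8 cases with LacZ, in 0 with HDAC4 wt, and below it in 5 of 8 with HDAC4 3SA. Muscle markers lay above it in 6 of 7 with LacZ and below it in 4 of 6 and 1 of 7 with the HDAC4 vectors. Of the meningeal fibroblast markers 2 of 6 lay above it with LacZ and none beyond it with the others. The spinal neuron markers had medians of -0.08, -0.16 and -0.36, and 1 of 7 lay below the threshold with HDAC4 3SA. The dorsal horn neuron markers had medians of 0.35, -0.20 and -0.26, with 2 of 9 above it with LacZ and 2 of 9 below it with HDAC4 3SA. The oligodendrocyte markers had medians of 0.03, 0.19 and 0.12. The part of these cells in the member values was not tested.

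**Figure D5:**
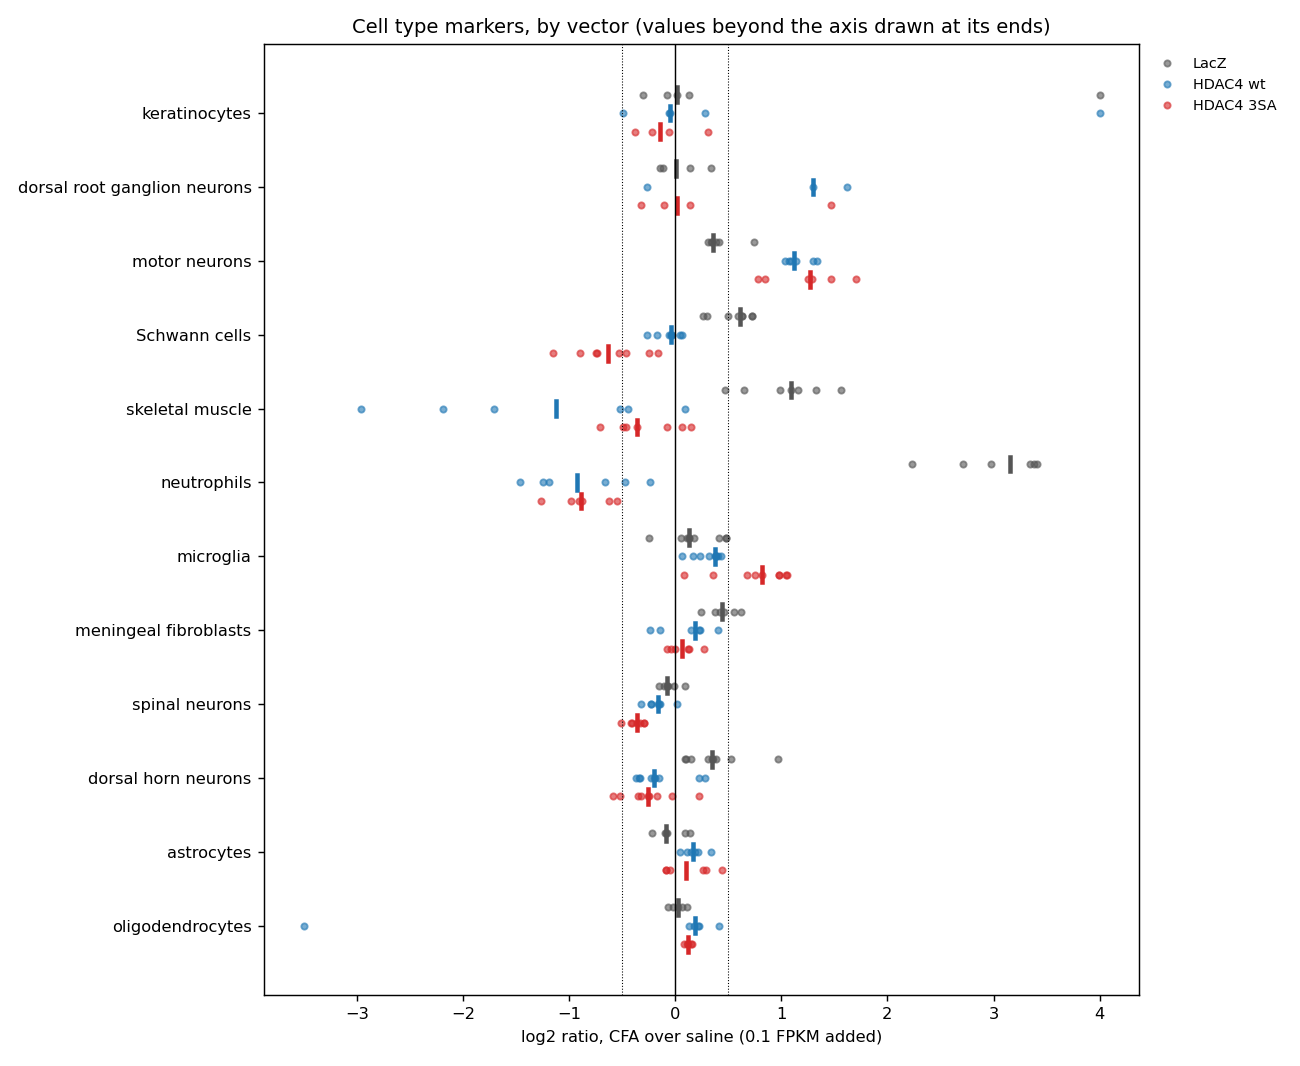
log2 ratio of CFA over saline with 0.1 FPKM added (x axis) for the genes read of 12 marker lists (y axis), coloured by vector, with a bar at each list's median. Values beyond the axis are drawn at its ends. Motor neuron markers have positive medians with every vector (0.36, 1.12 and 1.27), and neutrophil markers a positive median with LacZ (3.16) and negative ones with the HDAC4 vectors.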

How the data were processed

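Dorsal spinal cord RNA of 18 mice in 6 groups of 3 was sequenced as strand-specific poly-A libraries. Per the study's methods and the submitters' processing notes, reads were aligned with Bowtie and TopHat to GRCm38 with Ensembl genes and quantified with Cufflinks and Cuffdiff. The authors deposited 3 gene tables, 1 per vector, with 34579 loci and 1 FPKM value per group, taken here as normalised within each table. Their columns of fold changes, test statistics, p-values and q-values were not used. Values per mouse and the depth of each library were not analysed here (the methods state a minimum depth), so the limma fit foreseen for values per mouse was not made, the precision of a value is unknown, and no test was run.

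Members, lists and motifs were chosen with earlier results of these data known. Each gene name took the locus with the highest mean FPKM, and 326 genes with differing places across tables were marked. Ratios used 0.1 FPKM added, a minimum mean of 0.5 FPKM and a threshold of 0.5 on the log2 scale, which is the study's fold threshold. Named genes were all members, at most 4 genes per list with the largest log2 ratios, its 2 most abundant genes and those listed at 0 where needed, and the nearest 5 genes to Sprr1a and 2 to each other member. In the comparison of vectors after saline, and for the markers Krt14, Sfn and Trpv1 and for Hdac4, genes were named after their values were seen. A few genes that the rule would name are not reported here. Marker lists covered keratinocytes, dorsal root ganglion and motor neurons, Schwann cells, muscle, neutrophils, microglia, meningeal fibroblasts, spinal and dorsal horn neurons, astrocytes and oligodendrocytes. Promoters came from RefSeq on GRCm38.p6, gene bounds from GENCODE. Python 3.11.15, pandas 2.3.3 and NumPy 2.4.6 were used, and the ratios were tested on simulated data. In all, 7 alternatives were tried.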

Additional observations from a re-analysis of the deposited data

Results flagged for a closer look

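Gap43, Ecel1 and Csf1 each had a second locus of the same name, with a lower mean FPKM, that was used only where loci of 1 name were summed. In 6 cases the log2 ratio of CFA over saline at such a locus lay beyond 0.5. The second Gap43 locus was at 12.3 FPKM in the saline group and 33.3 FPKM in the CFA group in HDAC4 wt mice, a log2 ratio of 1.44, while it was listed at 24.0 and 28.8 with LacZ and 15.8 and 17.9 with HDAC4 3SA. The second Ecel1 locus was higher after CFA with every vector, at 3.66 and 7.92 FPKM with LacZ, 4.43 and 6.78 with HDAC4 wt and 4.02 and 7.36 with HDAC4 3SA, log2 ratios of 1.09, 0.60 and 0.85. The second Csf1 locus stayed under 0.5 FPKM in each group, and so under the minimum at which a gene was read. Its log2 ratios, counted among the 6 cases, were 0.67 with HDAC4 wt and 0.55 with HDAC4 3SA. The used loci of Gap43, Ecel1 and Csf1 had log2 ratios of -0.21, -0.06 and 0.29 in HDAC4 wt mice. In the order of identifiers, the second loci stood among genes mostly on the plus strand (70 plus and 12 minus for Gap43, 87 and 8 for Ecel1, 77 and 11 for Csf1), whereas the genes themselves lie on the minus strand. What is transcribed at these loci was not tested.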

How the results depend on the processing

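No paired analysis was possible because the tables hold 1 value per group, and for the same reason no replicate could be left out. Of 223 values recomputed under 7 alternatives (0 or 1 FPKM added, no minimum or 2 FPKM, a log2 threshold of 1, ratios centred on their median over genes past 5 FPKM, loci of 1 name summed), none changed sign from beyond the threshold. Within it, summing loci turned Ecel1 from -0.06 to 0.08 and Gap43 from -0.21 to 0.03 in HDAC4 wt mice. The member count with LacZ was 0 at a minimum of 2 FPKM, since Sprr1a is then not read, and the other 20 recomputed member counts lay within 1.5 times the reported ones. With LacZ and HDAC4 wt the count was Sprr1a alone, whose rise chose the set, so its steadiness there does not bear on the other members. Member counts without Sprr1a were not recomputed. At a threshold of 1 the count in HDAC4 3SA mice was 2 and not 3, as Csf1, at 0.62, falls short of it. All 18 recomputed medians lay within 0.1 of the reported ones, and that of HDAC4 3SA, 0.35, reached 0.38 at a minimum of 2 FPKM and 0.39 with loci summed. Sprr1a with LacZ, at 2.59, was 1.24 with 1 FPKM added and 3.03 with nothing added. Genes of the 8 lists beyond the threshold numbered 6, 2 and 13 with LacZ, HDAC4 wt and HDAC4 3SA. A threshold of 1 left 0, 0 and 5. With LacZ, adding 1 FPKM left 2 and a minimum of 2 FPKM left 3, and with HDAC4 wt no minimum gave 4. Over all genes, 549, 781 and 1460 lay above the threshold, against 274, 477 and 988 with 1 FPKM added, 1148, 1199 and 2020 with no minimum, 260, 486 and 957 at a minimum of 2 FPKM, and 129, 255 and 427 at a threshold of 1. Those below it numbered 330, 500 and 522, against 192, 266 and 265, 687, 850 and 795, 176, 257 and 309, and 91, 146 and 132 in the same order. Low FPKM values, such as those of Sprr1a in LacZ mice, are given no precision here, since values per mouse and the depth of each library were not analysed and the authors' test columns were not used.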
